A study of Sus scrofa with 6 samples.

Results

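The tight junction genes described here are the claudins CLDN1, CLDN3, CLDN4, CLDN5, CLDN7 and CLDN10, occludin (OCLN), the junctional adhesion molecule F11R, the scaffold TJP1 and cingulin (CGN), 10 genes picked by symbol from a count table of 35670 pig genes. A row was found for 9 of the 10, and all 9 passed the filter on low counts that left 17920 genes for testing; CGN had no row with its symbol and was not analysed here. The counts come from the ampulla of the pig (Sus scrofa) oviduct, the segment in which eggs are fertilised, in 3 libraries of early luteal tissue and 3 libraries of post-ovulatory tissue from female animals. The labels name no strain, age, treatment or separate animals behind the replicates, so a p-value here reflects how much these 6 samples vary, and that variation may be technical. The question that the design holds is which transcripts differ between early luteal and post-ovulatory ampulla.

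Tight junctions are belts of membrane strands that seal the gap between neighbouring epithelial or endothelial cells near the lumen. Claudins form the strands and decide what passes between cells: some seal the gap and others form channels for ions. Occludin and the junctional adhesion molecules lie in the same belt, and scaffold proteins such as TJP1 and cingulin tie it to the actin cytoskeleton. In the oviduct the epithelial barrier separates the tubal fluid, in which gametes and early embryos lie, from the tissue below.

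Library totals ran from 7370723 to 30954222 counts, and early luteal replicate 2 differed from all the rest. That library had the lowest level of all libraries in 39.4% of tested genes and the highest in 27.0%. It held no count for 34 of the 11160 tested genes that reached 5 CPM in every other library, against 0 such genes in each of the other libraries (CPM is the count over the TMM-scaled library total times 1e6). In these tissue libraries fewer cells of a type and less RNA per cell cannot be told apart. The results are therefore given with and without early luteal replicate 2.

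No member passed the threshold between the stages, and in 7 of the 9 the sign of the difference turned when 1 library was left out. The edgeR quasi-likelihood test called 0 of 9 members at a Benjamini-Hochberg adjusted p of 0.05, against 0 of 17920 tested genes (0%), and 0 of 9 had an unadjusted p under 0.05, against 7.11% of all tested genes. DESeq2 called 0 of the 9, against 1.03% of the genes it tested. The stages did not overlap in 1 member, OCLN, against 17.2% of all tested genes in either direction. The median log2 fold change (early luteal over post-ovulatory) of the 9 was -0.04, beside -0.03 over all tested genes, with 3 members on the higher side and 6 on the lower. Without early luteal replicate 2 the median of the members was 0.17, beside 0.0087 over all genes, and again no member had an unadjusted p under 0.05 (8.33% of all genes did).

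**Figure D1:**
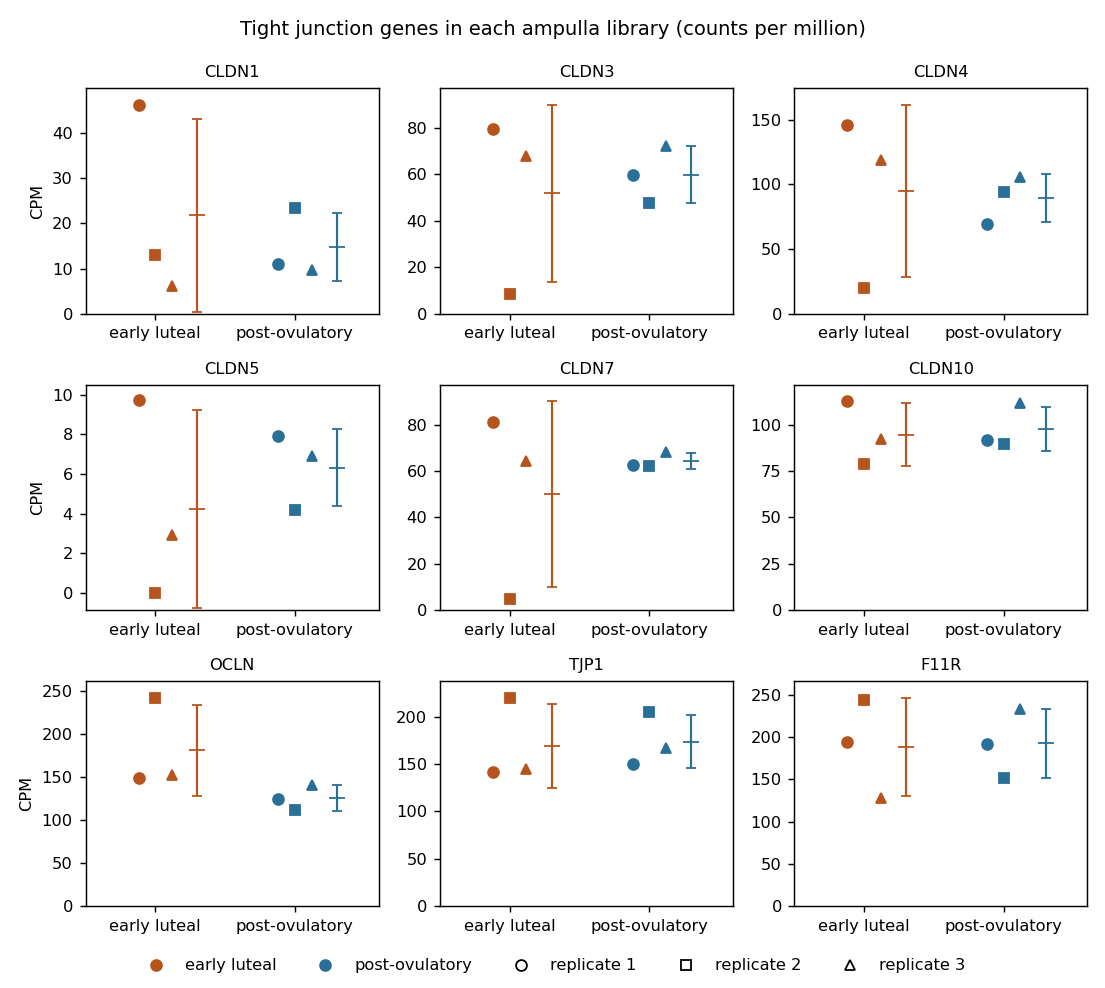
CPM (y axis, which includes 0) of 9 tight junction genes in each library, with early luteal libraries on the left and post-ovulatory libraries on the right of each panel; the shape of a point is its replicate number, and the bar is the mean ± SD of 3 libraries. In CLDN3, CLDN4, CLDN5 and CLDN7 early luteal replicate 2 (square) lies below every other library, while in OCLN, TJP1 and F11R it is the highest.

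Among the claudins that seal the paracellular gap, CLDN3, CLDN4 and CLDN7 shared a pattern. Their levels lay within 1.67-fold (CLDN3), 2.11-fold (CLDN4) and 1.30-fold (CLDN7) over 5 libraries and far lower in early luteal replicate 2. CLDN3 and CLDN4, close relatives known as receptors for the Clostridium perfringens enterotoxin, lie 19608 bases apart on chromosome 3 (Sscrofa11.1), CLDN3 from 11019073 to 11020102 and CLDN4 from 11039711 to 11053930 in the RefSeq annotation.

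CLDN3 had 79.2, 8.40 and 67.6 CPM in early luteal replicates 1, 2 and 3, against 59.6, 47.5 and 72.3 CPM in post-ovulatory replicates 1, 2 and 3. Its stages overlapped, with the highest and the lowest library both early luteal. The fitted log2 fold change was -0.21 ± 0.65 (SE), with a 95% interval from -1.70 to 1.29 (edgeR, adjusted p = 0.950). Without early luteal replicate 2 it was 0.29 ± 0.23, with an interval from -0.26 to 0.85 (edgeR, adjusted p = 0.736), so the sign of the difference rested on that library.

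CLDN4 had 146, 19.8 and 119 CPM in early luteal replicates 1, 2 and 3, against 69.0, 94.1 and 106 CPM in the post-ovulatory ones. Early luteal replicates 1 and 3 lay above all 3 post-ovulatory libraries and early luteal replicate 2 below all of them. The fit gave a log2 fold change of 0.09 ± 0.60 (SE; 95% interval -1.29 to 1.46; edgeR, adjusted p = 0.979). Without early luteal replicate 2 it was 0.56 ± 0.24 (interval -0.02 to 1.15; edgeR, adjusted p = 0.604, unadjusted p = 0.0558), the lowest unadjusted p of the 9 members in that fit. It was -0.36 without early luteal replicate 1.

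CLDN7, a claudin of the basolateral membrane as well as of the junction, had 81.0, 4.61 and 64.3 CPM in early luteal replicates, against 62.4, 62.3 and 68.3 CPM in post-ovulatory replicates. The post-ovulatory libraries lay within a few CPM of one another (64.3 ± 3.42, SD, n = 3), whereas the early luteal libraries spread over 17.6-fold (49.96 ± 40.1). The fitted difference was -0.36 ± 0.76 on the log2 scale (SE; 95% interval -2.09 to 1.37; edgeR, adjusted p = 0.922). Without early luteal replicate 2 it was 0.17 ± 0.19 (interval -0.29 to 0.64), and the 5 remaining libraries spanned 1.30-fold. CLDN7 lies on chromosome 12, from 52612517 to 52628376.

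These drops were larger than counting error. In early luteal replicate 2, 62 counts of CLDN3 correspond to 6.44 to 10.8 CPM, 146 counts of CLDN4 to 16.7 to 23.3 CPM and 34 counts of CLDN7 to 3.19 to 6.44 CPM (exact 95% Poisson intervals, which cover counting error only). The levels were 8.74-fold (CLDN3), 6.69-fold (CLDN4) and 15.8-fold (CLDN7) lower than the mean of early luteal replicates 1 and 3. Of all tested genes, 2.37% were as low or lower by that ratio as CLDN3, 3.96% as CLDN4 and 0.580% as CLDN7 (0.5 CPM added to both sides). These claudins thus stood among the genes with the deepest drop in the library, but they were not alone there.

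CLDN5 is the claudin best known from endothelium, where it seals vessels of the brain, and it lies on chromosome 14, from 51161490 to 51162382. Its counts were low in all libraries, at 9.73, 0 and 2.93 CPM in early luteal replicates, against 7.89, 4.17 and 6.91 CPM in post-ovulatory replicates. Early luteal replicate 2 held 0 counts, which allows a level of up to 0.406 CPM (3 counts), at least 10.3-fold lower than the lowest post-ovulatory library. The stages overlapped because early luteal replicate 1 was the highest of all 6 libraries. The log2 fold change was -0.57 ± 1.14 (SE; 95% interval -3.17 to 2.03; edgeR, adjusted p = 0.917) and -0.0025 ± 0.60 without early luteal replicate 2 (interval -1.45 to 1.45).

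CLDN5 ran in the same order as the endothelial list score (the mean centred log2 CPM of 14 markers) in the early luteal libraries and in the opposite order in the post-ovulatory ones. The score was 0.27, -1.55 and -0.11 in early luteal replicates, against -0.10, 1.16 and 0.32 in post-ovulatory replicates. Post-ovulatory replicate 2 thus had the highest score of all libraries and the lowest CLDN5 level of its stage. PECAM1, an adhesion molecule of endothelial cells, stood at 87.8 CPM in that library, against 31.6 and 35.4 CPM in post-ovulatory replicates 1 and 3. In early luteal replicate 2, 10 of the 14 endothelial markers had their lowest level of all libraries, and ESAM and EGFL7 were at 0 counts with CLDN5. EMCN, the endothelial sialomucin endomucin, was the 1 marker highest in that library, at 434 CPM, against 204 to 215 CPM in the 3 post-ovulatory libraries. The 14 endothelial markers summed to 455 to 591 CPM in early luteal and 438 to 751 CPM in post-ovulatory libraries, 2 of 14 at 0 in early luteal replicate 2, where EMCN made up 434 of the 591 CPM. The part of endothelial content in the CLDN5 values was not tested.

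CLDN1, a sealing claudin of skin and many other epithelia, varied most among the libraries other than early luteal replicate 2. It had 46.2, 13.01 and 6.18 CPM in early luteal replicates, against 10.9, 23.4 and 9.78 CPM in post-ovulatory replicates. The highest and the lowest value both came from early luteal tissue, a 7.48-fold range within the stage. The log2 fold change was 0.58 ± 0.72 (SE; 95% interval -1.06 to 2.22; edgeR, adjusted p = 0.860) and turned to -0.59 without early luteal replicate 1. CLDN1 lies on chromosome 13, from 127714857 to 127730628. The 2 libraries highest in CLDN1, early luteal replicate 1 and post-ovulatory replicate 2, also had the 2 highest leukocyte marker scores (1.09 and 1.30, 12 markers). Post-ovulatory replicate 1 had a leukocyte score of 0.84 with CLDN1 at 10.9 CPM. This was not particular to leukocytes among the marker lists scored. The lymphatic endothelial list (4 markers) also had its 2 highest scores in those 2 libraries (0.34 and 0.92). The 12 leukocyte markers summed to 45.3 to 149.9 CPM in early luteal and 72.2 to 171 CPM in post-ovulatory libraries, with 4 of 12 at 0 in early luteal replicate 2. The part of leukocyte or lymphatic endothelial content in the CLDN1 values was not tested.

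CLDN10 forms ion channels rather than seals, and its 2 main isoforms differ in whether they pass cations or anions; gene counts do not separate them. It was the steadiest member, at 113, 78.9 and 92.1 CPM in early luteal replicates, against 91.8, 89.6 and 111 CPM in post-ovulatory replicates. All 6 libraries lay within 1.43-fold, and the stages overlapped. The log2 fold change was -0.05 ± 0.25 (SE; edgeR, adjusted p = 0.973), and its 95% interval, from -0.62 to 0.52, was the narrowest of the 9. CLDN10 lies on chromosome 11, from 65027706 to 65145002.

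OCLN, the tetraspanning junction protein occludin, was the one member in which every early luteal library lay above every post-ovulatory one. It had 149.7, 243 and 152 CPM in early luteal replicates, against 125, 112 and 141 CPM in post-ovulatory replicates. Early luteal tissue averaged 182 ± 52.9 CPM and post-ovulatory tissue 126 ± 14.8 CPM (SD, n = 3), a 1.44-fold difference (log2 fold change 0.53 ± 0.28, SE; 95% interval -0.12 to 1.17) that did not pass the threshold in edgeR (adjusted p = 0.713, unadjusted p = 0.0980) or DESeq2 (adjusted p = 0.619). Such a lack of overlap with early luteal higher was found in 7.61% of all tested genes, and 1 of 9 members is near that share. Without early luteal replicate 2, the highest library, the log2 fold change was 0.26 ± 0.19. OCLN lies on chromosome 16, from 47600175 to 47652435.

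F11R, a junctional adhesion molecule of the immunoglobulin family, and TJP1, a large scaffold that binds the tails of claudins and occludin, showed no difference between the stages that exceeded their spread. F11R (chromosome 4, from 89425101 to 89447889) had 194, 244 and 128 CPM in early luteal replicates, against 192, 152 and 234 CPM in post-ovulatory replicates. Its log2 fold change was -0.03 ± 0.32 (SE; 95% interval -0.76 to 0.69; edgeR, adjusted p = 0.984). TJP1 (chromosome 1, from 144930387 to 145195857) had 142, 220.0 and 145 CPM in early luteal replicates, against 149.7, 204 and 167 CPM in post-ovulatory replicates. Its log2 fold change was -0.04 ± 0.28 (95% interval -0.68 to 0.60; edgeR, adjusted p = 0.980). In both genes the stages overlapped and early luteal replicate 2 was the highest library. Without that library the values were -0.26 for F11R and -0.28 for TJP1. The intervals leave room for changes of about this width in either direction, so equal levels are not shown.

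**Figure D2:**
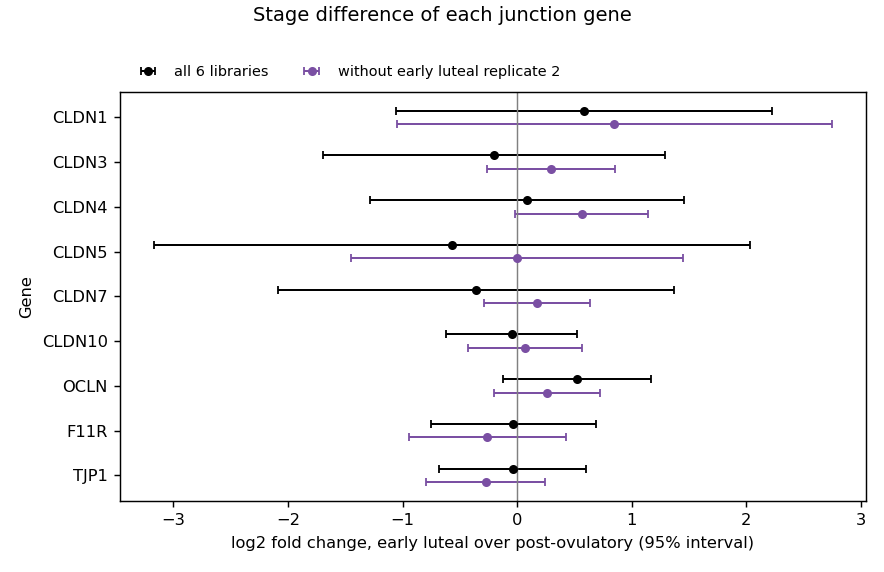
Log2 fold change of each gene, early luteal over post-ovulatory (x axis), with its 95% interval from edgeR's quasi-likelihood fit; black points use all 6 libraries and purple points leave out early luteal replicate 2. Every interval includes 0, and those of CLDN3, CLDN4 and CLDN7 become narrower and move to the right without that library.

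Early luteal replicate 2 held the lowest level of some members and the highest of others, as it did for many genes. CLDN3, CLDN4, CLDN5, CLDN7 and CLDN10 had their lowest level of all libraries there, 5 of 9 members, beside 39.4% of all tested genes. OCLN, TJP1 and F11R had their highest, 3 of 9 members, beside 27.0% of all tested genes, at 1.61-fold, 1.53-fold and 1.52-fold the mean of early luteal replicates 1 and 3. As a ratio of raw counts within a library, CLDN4 over OCLN was 0.974, 0.0815 and 0.781 in early luteal replicates, against 0.551, 0.843 and 0.747 in post-ovulatory replicates. CLDN7 over OCLN was 0.541, 0.0190 and 0.422 in early luteal replicates, against 0.498, 0.558 and 0.483 in post-ovulatory replicates. Ratios between counts of different genes also hold their transcript lengths, so they are compared only between libraries. TJP1 over OCLN moved in another way, at 0.949, 0.907 and 0.952 in early luteal replicates, against 1.195, 1.83 and 1.18 in post-ovulatory replicates. F11R over OCLN was 1.296, 1.004 and 0.837 in early luteal replicates, against 1.534, 1.360 and 1.655 in post-ovulatory replicates. Neither ratio overlapped between the stages, and both share OCLN, the member whose own levels did not overlap. All other ratios computed overlapped: CLDN3, CLDN4, CLDN7 and CLDN10 over OCLN, and CLDN4 and CLDN7 over CLDN3. The share of other gene pairs with such a lack of overlap was not computed. These ratios were picked after their values were seen and were not tested.

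**Figure D3:**
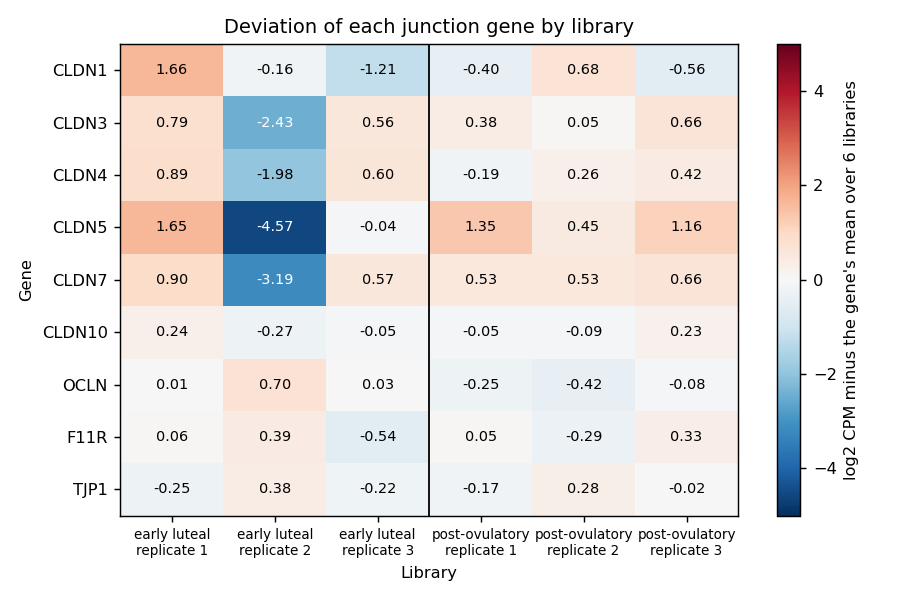
Log2 CPM of each gene in each library minus the gene's mean over all 6 libraries (colour and printed value), with early luteal libraries left of the line and post-ovulatory libraries right of it. Early luteal replicate 2 is blue for CLDN3, CLDN4, CLDN5 and CLDN7 (down to -4.57 for CLDN5) and red for OCLN, F11R and TJP1 (up to 0.70 for OCLN).

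Epithelial markers went both ways in early luteal replicate 2. Of the 10 markers, 4 had their lowest level of all libraries there (KRT8, KRT18, ELF3 and CDH3) and 3 their highest (EPCAM, CDH1 and ESRP1). The list score was 0.24, -0.37 and 0.10 in early luteal replicates, against -0.11, -0.17 and 0.31 in post-ovulatory replicates, so it was lowest in that library. EPCAM, an adhesion molecule that binds CLDN7 in epithelia, stood at 542, 1093 and 494 CPM in early luteal replicates, against 539, 385 and 522 CPM in post-ovulatory replicates, so it was highest in the library in which CLDN7 was lowest. CDH1, the epithelial cadherin, stood at 661, 785 and 475 CPM in early luteal replicates, against 429, 452 and 647 CPM in post-ovulatory replicates. The keratin KRT8 ran the other way there, with 483, 122 and 310 CPM in early luteal replicates, against 402, 385 and 633 CPM in post-ovulatory replicates. The summed level of the 10 epithelial markers was 2337 to 2883 CPM in early luteal and 2007 to 2777 CPM in post-ovulatory libraries, none of its markers at 0; in early luteal replicate 2 it was 2808 CPM. Epithelial markers were detected in every library. The labels name the oviduct ampulla and no cell type within it, and the part of epithelial content in the claudin values was not tested.

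The span of a gene in the genome moved with its level in early luteal replicate 2. For 11898 tested genes with a RefSeq span (introns included), the median centred log2 CPM in that library was -0.90 for the 1062 genes under 5000 bases, -0.59 for the 2077 genes of 10000 to 20000 bases and 0.17 for the 2268 genes over 100000 bases. In the other 5 libraries the same medians lay between 0.15 and 0.23, 0.07 and 0.21, and -0.04 and 0.01. CLDN5 and CLDN3 span 893 and 1030 bases, CLDN4 and CLDN7 14220 and 15860, and OCLN and TJP1 52261 and 265471. The order is not strict. CLDN10 spans 117297 bases and was lowest in early luteal replicate 2, while F11R spans 22789 bases, in a class with a median of -0.19 there, and was highest. CLDN1 spans 15772 bases and lay between the other libraries, and CLDN8, another claudin with a span of 777 bases, was highest in early luteal replicate 2. The part of gene span in the claudin values was not tested. No measure of RNA quality per library was used here, and a property of that library and one of its tissue cannot be told apart.

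**Figure D4:**
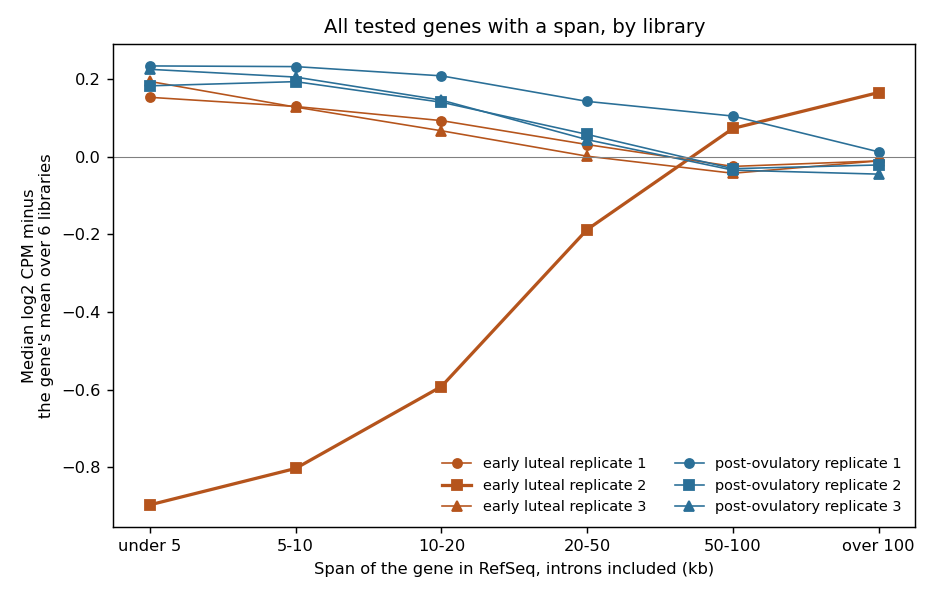
Median over genes of log2 CPM minus the gene's mean over 6 libraries (y axis) in 6 classes of genomic span (x axis, kilobases), 1 line per library. Early luteal replicate 2 runs from -0.90 in the shortest class to 0.17 in the longest, while the other 5 libraries stay between -0.04 and 0.23.

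Of 16 other claudins, 14 had a row and 6 passed the filter; CLDN16 and CLDN17 had no count in any library. By edgeR 0 of the 6 passed the threshold, and 2, CLDN8 and CLDN23, both higher in early luteal tissue, had an unadjusted p under 0.05, beside 7.11% of all tested genes (2 of 6 without early luteal replicate 2, beside 8.33%). CLDN8, a claudin of tight epithelia known from the distal nephron, stood at 98.9, 99.8 and 64.0 CPM in early luteal replicates, against 38.6, 35.7 and 64.7 CPM in post-ovulatory replicates. Early luteal replicate 3 and post-ovulatory replicate 3 met at about the same level, and the other libraries separated by stage. CLDN8 had a log2 fold change of 0.91 ± 0.33 (SE; edgeR, adjusted p = 0.677), and 0.81 without early luteal replicate 2. CLDN23, another sealing claudin of epithelia, stood at 13.01, 7.86 and 11.04 CPM in early luteal replicates, against 1.56, 3.79 and 5.72 CPM in post-ovulatory replicates. Every early luteal library lay above every post-ovulatory one, as in 7.61% of all tested genes (log2 fold change 1.52 ± 0.58, SE; edgeR, adjusted p = 0.685; DESeq2, adjusted p = 0.224). Without early luteal replicate 2 it was 1.69. The channel-forming CLDN2 stood at 11.9, 2.44 and 1.26 CPM in early luteal replicates, against 6.33, 12.0 and 5.08 CPM in post-ovulatory replicates, and overlapped between the stages. CLDN6 and CLDN9 are close copies of each other, so their counts may be uncertain, and the mapping of their reads was not examined. Both had at most 37 counts in a library. At these low counts CLDN6 separated the other way, as did 1715 of 17920 tested genes. It had 0.644, 0 and 0.332 CPM in early luteal replicates, against 0.968, 0.758 and 1.18 CPM in post-ovulatory replicates.

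Among other membrane proteins of the junction, 0 of 11 tested genes had an unadjusted p under 0.05, beside 7.11% of all tested genes. Their median log2 fold change was 0.17. ILDR1 and ILDR2 belong to the angulins, which mark the corners where 3 cells meet. ILDR1 stood at 131, 302 and 139.7 CPM in early luteal replicates, against 111, 104 and 162 CPM in post-ovulatory replicates, with a log2 fold change of 0.60 ± 0.38 (SE; edgeR, adjusted p = 0.743), and of 0.11 without early luteal replicate 2. ILDR2 stood at 89.7, 58.8 and 90.5 CPM in early luteal replicates, against 123, 85.1 and 151 CPM in post-ovulatory replicates. Both overlapped between the stages. JAM3, a relative of F11R, stood at 15.8, 16.5 and 24.9 CPM in early luteal replicates, against 9.16, 16.6 and 8.06 CPM in post-ovulatory replicates (log2 fold change 0.77 ± 0.42, SE; edgeR, adjusted p = 0.716).

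Of 27 other scaffold and polarity genes, 13 lay on the higher and 14 on the lower side, and the median log2 fold change was -0.05. Only 1 had an unadjusted p under 0.05, beside 7.11% of all tested genes (2 without early luteal replicate 2, beside 8.33%). The 1 gene with all libraries was MAGI2, a membrane-associated scaffold with PDZ domains. It stood at 9.47, 15.7 and 23.0 CPM in early luteal replicates, against 5.29, 7.45 and 8.54 CPM in post-ovulatory replicates. The stages did not overlap, and the log2 fold change was 1.18 ± 0.46 (SE; edgeR, adjusted p = 0.685). The summed smooth muscle markers (0 of 9 at 0 counts) ran from 1102 to 10042 CPM in early luteal and from 3065 to 5955 CPM in post-ovulatory libraries, lowest and highest in the same early luteal libraries (replicates 1 and 3) as MAGI2 within its stage. In the post-ovulatory libraries MAGI2 was highest in replicate 3, where the muscle sum was lowest (3065 CPM); the part of muscle content in the MAGI2 values was not tested. MPDZ, a multi-PDZ partner of claudins, stood at 64.2, 89.3 and 55.5 CPM in early luteal replicates, against 93.4, 106 and 83.9 CPM in post-ovulatory replicates, with a log2 fold change of -0.44 ± 0.27 (SE; edgeR, adjusted p = 0.736) and of -0.66 without early luteal replicate 2.

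Adherens and desmosomal genes held 0 of 14 with an unadjusted p under 0.05, beside 7.11% of all tested genes (median log2 fold change 0.11). Without early luteal replicate 2 they held 1 of 14, beside 8.33%. The desmosomal cadherin DSC2 stood at 61.2, 131 and 62.4 CPM in early luteal replicates, against 61.2, 30.9 and 55.2 CPM in post-ovulatory replicates. Desmoplakin (DSP), which links desmosomes to keratin filaments, stood at 183, 92.3 and 81.5 CPM in early luteal replicates, against 240.3, 109.8 and 244 CPM in post-ovulatory replicates. In DSC2 the nearest libraries of the stages were almost level, and in DSP the stages overlapped.

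Regulators of junction genes held 3 of 16 with an unadjusted p under 0.05, beside 7.11% of all tested genes, and 2 of 16 without early luteal replicate 2, beside 8.33%; 0 passed the threshold in edgeR. KLF5, a Krüppel-like factor of epithelia, stood at 229, 421 and 209 CPM in early luteal replicates, against 162, 131 and 184 CPM in post-ovulatory replicates (log2 fold change 0.85 ± 0.34, SE; edgeR, adjusted p = 0.685). For KLF5 the change was 0.46 without early luteal replicate 2 (edgeR, unadjusted p = 0.0759). TFCP2L1, a transcription factor, stood at 11.7, 18.3 and 18.6 CPM in early luteal replicates, against 27.3, 28.9 and 54.1 CPM in post-ovulatory replicates (log2 fold change -1.19 ± 0.38; edgeR, adjusted p = 0.664). SNAI2, a repressor of claudin, occludin and cadherin genes in epithelial-mesenchymal transition, stood at 4.90, 1.084 and 2.33 CPM in early luteal replicates, against 17.9, 17.8 and 6.84 CPM in post-ovulatory replicates. In these 3 of 16 genes the stages did not overlap, beside 17.2% of all tested genes. The log2 fold change of SNAI2 was -2.33 ± 0.67 (SE; edgeR, adjusted p = 0.647, and -1.97 without early luteal replicate 2); DESeq2 called it (adjusted p = 0.0359). Stromal cells also express SNAI2, and 10 of 11 stromal markers lay on the same lower side (median log2 fold change -0.76). Of all 17920 tested genes, 9286 lay on that side. In edgeR, 4 of the 11 had an unadjusted p under 0.05, all lower, beside 7.11% of all tested genes in either direction. DESeq2 called COL1A1, a fibrillar collagen (adjusted p = 0.00794), and PI16, a fibroblast marker (adjusted p = 0.0426), both lower. It called 1.03% of all the genes it tested. The summed stromal markers stood at 793 to 2004 CPM in early luteal and 1496 to 2970 CPM in post-ovulatory libraries, 0 of 11 at 0 counts, with VIM alone at 1068 CPM in early luteal replicate 1; the part of stromal content in the SNAI2 values was not tested.

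**Figure D5:**
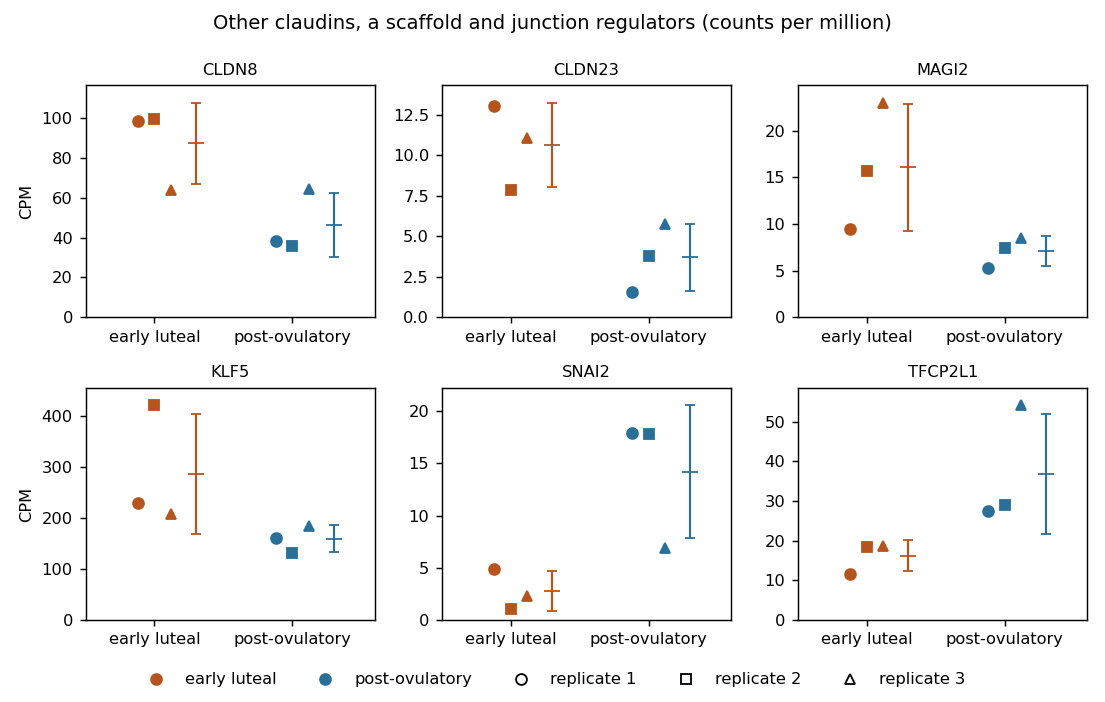
CPM (y axis, from 0) of CLDN8, CLDN23, MAGI2, KLF5, SNAI2 and TFCP2L1 by library, early luteal on the left and post-ovulatory on the right, with the mean ± SD of 3 libraries as a bar. CLDN23, MAGI2 and KLF5 lie higher in all early luteal libraries and SNAI2 and TFCP2L1 lower, while CLDN8 meets at 64.0 and 64.7 CPM.

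The genes most like each member over the 6 libraries were taken by the root mean square difference of centred log2 CPM. CLDN7 was closest to SARS2, MFSD5 and SELENOO (0.0718 to 0.0933, where CLDN7 itself deviated from its mean by 1.43), CLDN4 to USP20, ARSA and GLP2R (0.0812 to 0.102) and CLDN3 to FAM53A, PUSL1 and ETNK2 (0.114 to 0.156). For CLDN3, CLDN4 and CLDN7 the largest deviation of all libraries was in early luteal replicate 2 (-2.43, -1.98 and -3.19). Their likenesses therefore rest largely on that library. Among the members, CLDN3 and CLDN4 were the closest pair (0.324), where each deviated from its own mean by 1.11 and 0.946. TJP1 and F11R followed (0.340), but they deviated from their own means by only 0.245 and 0.328. That small distance thus does not show a shared pattern. CLDN5 and OCLN were the farthest (2.43). OCLN, with an own deviation of 0.350, was closest to FAM76A, RSRP1 and SNX13 (0.0472 to 0.0646). CLDN10, with an own deviation of 0.181, was closest to COPS7B, TRIM4 and RSPH6A (0.04997 to 0.0643). The nearest to CLDN1, GPRC5A, KLRK1 and C5AR2, differed by 0.235 to 0.347, where CLDN1 itself deviated by 0.932. These distances are not scaled to the spread of a gene, so they do not rank the members by how close their matches are.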

How the data were processed

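Counts were analysed for 3 early luteal and 3 post-ovulatory ampulla libraries. Per the labels' protocols, stranded libraries of polyadenylated RNA (KAPA kit) were read in pairs on a NextSeq2000. Alignment was with STAR to Sscrofa11.1 after Trim Galore and FastQC 0.11.4, per the submitters' processing notes. How reads were counted, and with which strand setting, is not given in the sources used here. The authors deposited whole-number counts per Ensembl gene, without normalization. The table's header lacks a tab, so columns were taken by position. Symbols came from a table of gene names, and positions and spans from RefSeq (Sscrofa11.1), by symbol.

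The test was edgeR 4.0.16 (R 4.3.3; quasi-likelihood, robust, TMM, filterByExpr, two-sided, Benjamini-Hochberg over 17920 genes), with DESeq2 1.42.0 and limma 3.58.1 voom as alternatives. SE was derived from the fold change and its F statistic. Centred log2 CPM used a prior count of 2. On data simulated for this comparison (17356 genes passing), the calls were 1 of 50 genes at a true 2-fold change, 13 at 4-fold and 32 at 8-fold. The floor of a library was 3 counts. Members and lists were chosen with earlier results of these data known. Named genes of a list were taken from the 2 lowest p and the 2 highest mean CPM, and not all of these are named. Some genes most like a member are named as well. Of the other named genes, PECAM1, ESAM, EGFL7, KRT8, KRT18, ELF3, CDH3, ESRP1, CLDN2, CLDN6, CLDN9, CLDN16 and CLDN17 were chosen after their values were seen.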

Additional observations from a re-analysis of the deposited data

How the results depend on the processing

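In every setting tried, 0 of 9 members passed the threshold, and the members' median log2 fold change stayed between -0.36, with early luteal replicate 1 left out, and 0.17, with early luteal replicate 2 left out. The number of genes past the threshold was 0 with each scaling and with each library left out (from 0 to 0), 8 with no filter on low counts, 174 by DESeq2 and 10 by limma voom with sample quality weights; the cause was not tested. OCLN and CLDN5 kept their sign in all settings. Signs turned for small differences, with no adjusted p under 0.05: by upper quartile scaling F11R (0.027) and TJP1 (0.00996), by voom with weights CLDN3 (0.0044) and with the replicate block CLDN4 (-0.27). With a library left out, the log2 fold change ran from -0.59 to 1.06 for CLDN1, -0.65 to 0.29 for CLDN3, -0.36 to 0.56 for CLDN4, -0.89 to 0.17 for CLDN7, -0.18 to 0.067 for CLDN10, -0.26 to 0.17 for F11R and -0.28 to 0.10 for TJP1. The sign turned without early luteal replicate 1 (CLDN1, CLDN4, TJP1), 2 (CLDN3, CLDN7, CLDN10) or 3 (CLDN4, F11R, TJP1) and without post-ovulatory replicate 1 (CLDN4), 2 (TJP1) or 3 (CLDN10, F11R). No sign of pairing by replicate number was seen. Deviations of same-numbered libraries correlated at 0.05, -0.08 and 0.13, and 2 of 6 libraries correlated best with their own number. The replicate block called 0 genes (1043 at an unadjusted p under 0.05, 1275 without the block). With 3 libraries a stage and early luteal replicate 2 among them, this check cannot exclude pairing. Changes of up to 4-fold were mostly not called in the simulation (13 of 50 at 4-fold, 32 of 50 at 8-fold). That simulation gave no library a shift of its own, unlike early luteal replicate 2.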
